A study of Mus musculus with 5 samples.

Results

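The constitutive proteasome subunits are mostly genes that encode the standing parts of the 26S proteasome. They were taken from the deposited table by symbol: Psma, Psmb, Psmc or Psmd followed by a number. The interferon-inducible catalytic subunits Psmb8, Psmb9 and Psmb10 and any row at exactly 0 in all libraries were left out. The rule gave 36 of 23420 listed genes, of which 16 were counted as 20S core (Psma and Psmb) and 20 as 19S cap (Psmc and Psmd). By symbol, the cap includes the assembly chaperones Psmd5, Psmd9 and Psmd10, and the core the testis subunit Psma8 and the thymus subunit Psmb11. No member was removed for being at 0 throughout. The genes lie on 16 chromosomes.

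Messenger RNA was sequenced from live CD11b-positive cells sorted from the forebrain of mouse pups at postnatal day 8, in a study of STAT3 in microglia, the resident macrophages of the brain. The knockout group held 3 libraries from pups with 1 allele of Cx3cr1CreERT2, a tamoxifen-inducible Cre recombinase placed in the fractalkine receptor gene, and both copies of Stat3 floxed. They were given tamoxifen daily from postnatal day 1 to 3. Littermates that carried the floxed Stat3 alleles but lacked the Cre gave the 2 control libraries, and the labels do not say whether these also got tamoxifen (their treatment entry reads untreated in both groups). Each library pooled 2 to 4 pups of both sexes and 1 genotype. Loss of Stat3, the presence of Cre and the disruption of 1 Cx3cr1 copy therefore cannot be told apart. If the controls got no tamoxifen, its effect cannot be told apart from these either. The Cx3cr1 locus is also active in border macrophages and monocytes, so recombination need not be limited to microglia.

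The 26S proteasome is the protease that degrades proteins marked with ubiquitin chains. Its 20S core is a stack of rings: the outer α rings (Psma) gate the entry, and the inner β rings (Psmb) hold the active sites, which in the constitutive particle are Psmb5 (chymotrypsin-like), Psmb6 (caspase-like) and Psmb7 (trypsin-like). The 19S cap has a base of ATPases (Psmc) that unfold the substrate and a lid (most Psmd genes) around the deubiquitinase Psmd14. The subunits are needed in fixed proportions, and their genes are known to rise together through the transcription factor Nfe2l1 when proteasome activity falls. In macrophages and microglia, interferon exchanges Psmb5, Psmb6 and Psmb7 for Psmb8, Psmb9 and Psmb10.

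The deposited values are log2 values, each gene set against a reference value that the table does not hold, so libraries can be compared within a gene and levels cannot be compared between genes. The depth of each library is unknown. Stat3 itself showed no drop in the libraries with the knockout label, at 0.96, 0.07 and 0.24 against 0.08 and 0.45 in the controls, which does not bear out the label, so "labelled knockout" is used throughout. Whether reads outside the floxed exons made up this value is not known. Cx3cr1 stood at 3.36, 3.34 and 3.00 against 4.32 and 3.95. All 14 microglia markers were expressed in every library, none of them found at the value of a gene without reads, with library medians from 2.73 to 2.97. Of the markers of other myeloid cells none passed limma, although 6 of 6 tested monocyte, 4 of 5 neutrophil and 4 of 6 border macrophage markers had a difference above 0. Median differences were 0.90, 1.04 and 0.64. Both controls were at the value of a gene without reads for 3, 1 and 3 of these markers, which could only be tested through the libraries labelled knockout. Over the others the medians were 0.47, 1.01 and -0.16. S100a9, a neutrophil marker among the others and picked after its values were seen, had the largest difference of these lists, 2.46 (limma adjusted p 0.599). It stood at 2.29, 1.73 and 2.31 with the knockout label against -0.33 and -0.37 in the controls. Retnlg was the tested neutrophil marker below 0, at -0.07. Neuronal markers were mostly at the value of a gene without reads, in 31 of 40 values. Library medians were 0.68 to 1.13 against -0.17 and 0.16 for monocytes, and 0.88 to 1.66 against -0.15 and 0.31 for neutrophils. The part of such cells in the values below was not tested. In bulk RNA, fewer cells of a type and less RNA per cell cannot be told apart.

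A gene without reads still takes a value in this table, one that follows a fixed pattern across the libraries, here called the 0-read value. A library was counted as lying at it only where at least 2 libraries of the gene did, so a single library at it was missed. Whether libraries with a few reads were counted as well was not tested. More values of core subunits than of cap subunits were at it. It held for 42 of 180 member values (23.3%), divided into 30 of 80 core values (37.5%) and 12 of 100 cap values, a contrast that was not tested. Over all genes not at 0 throughout the share was 50.5%, over cytosolic ribosomal proteins 38.1%, and over subunits of the TCP1 chaperonin 5.00%. In all, 22 members were never found at it. The 6 ATPases were among these, with 0 of 30 values. By library, 11, 6 and 6 members lay at it in the labelled knockout replicates 1, 2 and 3, and 12 and 7 in control replicates 1 and 2.

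Genes found at the 0-read value in 4 or 5 libraries were not tested, which removed 6 members and left 30 (11 of the core, 19 of the cap). Psma3, an α ring subunit, was at it in all 5 libraries. Each of the other 5 lay above it in a single library. For the α ring genes Psma5 and Psma8 that library was labelled knockout replicate 3, with values of 1.17 and 0.47. Psma8 encodes an α subunit of the testis. For Psmb3, a β ring subunit without an active site, it was labelled knockout replicate 2 at 0.43. For the chymotrypsin-like subunit Psmb5 it was control replicate 2 at 0.24, and for the lid deubiquitinase Psmd14 it was control replicate 1 at -0.13. Genes such as Psma3, Psmb5 and Psmd14 encode parts that every assembled 26S particle of the constitutive type contains.

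Several of the members left out have transcripts that largely recur in another annotated gene. The reads were 40 bases long, so every window of 40 bases was looked up in all transcripts of GENCODE vM21 on GRCm38. The median share of windows found in another gene was 42.4% for the 6 members left out and 0.25% for the 30 tested. Only Psmb5 (64.2%), Psmb3 (62.4%) and Psma5 (61.0%) shared over 50% of their windows, and all 3 were left out. Psma3 shared 23.8%, Psmd14 4.13% and Psma8 none. Of the tested members, 15 shared no window at all and the highest share was 34.1%, for Psmd2. No test was made, since the members left out are few and 2 of them share little or nothing. How reads that fit several places were counted is not given in the sources used here, and its part in these values was not tested.

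The copies are mostly processed pseudogenes. For Psmb5 (chr14:54614119-54618022, minus strand) Gm3375 on chromosome 7 held 53.3% of the windows. For Psma5 (chr3:108256926-108279974, plus strand) Gm8394 on chromosome 10 held 43.7%, and for Psmb3 (chr11:97703399-97713500, plus strand) AC114990.1 on chromosome 16 held 46.2%. Within the coding sequence, 84.3% of windows of Psma5, 78.4% of Psmb3 and 76.2% of Psmb5 were shared. One window from each is shown to make the point concrete: a read with these letters has more than 1 possible origin. The windows cover coding bases 157 to 196 of 726 in Psma5, 129 to 168 of 618 in Psmb3 and 543 to 582 of 795 in Psmb5, counted from the start codon, and are written 5′ to 3′ in the sense of the messenger RNA as DNA letters from GENCODE vM21.
Psma5: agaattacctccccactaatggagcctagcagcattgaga
Psmb3: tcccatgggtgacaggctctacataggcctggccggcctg
Psmb5: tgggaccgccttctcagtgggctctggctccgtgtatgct
The Psma5 window also occurs in Gm8394 and Gm12989, the Psmb3 window in Gm6884 and AC114990.1, and the Psmb5 window in Gm3375.

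**Figure D1:**
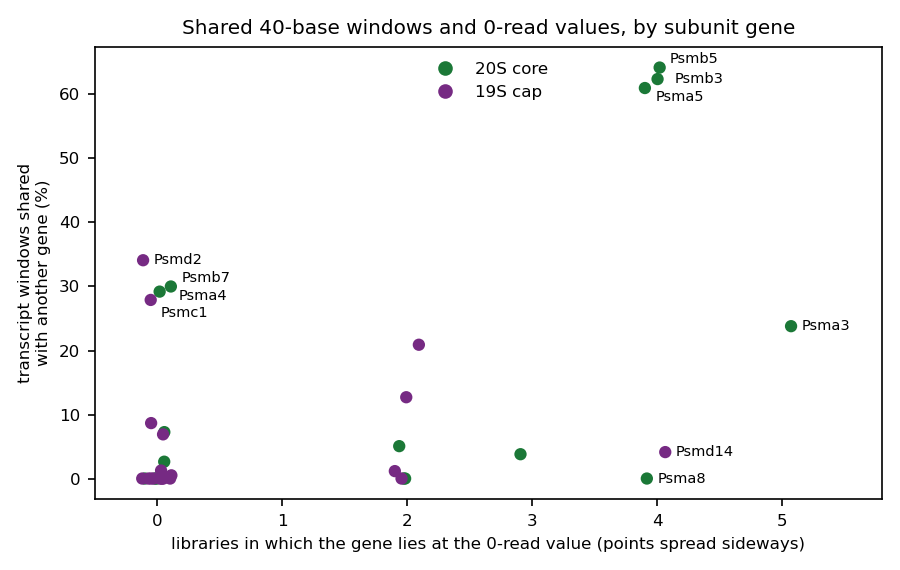
Share of 40-base transcript windows found in another annotated gene (y axis, percent) against the number of libraries in which the gene lies at the 0-read value (x axis, points spread sideways for legibility), 1 point per member, coloured by core or cap. Psmb5, Psmb3 and Psma5 stand alone above 50% and lie at the 0-read value in 4 libraries, while Psma8 and Psmd14 lie there with shares of 0.00% and 4.13%.

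None of the 30 tested members passed limma at an adjusted p of 0.05, in either direction. Over all 9456 tested genes 0 (0.00%) passed as higher and 0 (0.00%) as lower in the libraries labelled knockout, and the smallest adjusted p was 0.599. The filter could be passed through 1 group alone: both controls lay at the 0-read value for 1374 tested genes, and all libraries labelled knockout for 42. Such genes had to differ. Psmb11 was the only such member. The group difference was above 0 for 22 members, Psmb11 included, and below 0 for 8. Tested genes as a whole leaned the same way, with 60.0% above 0 and a median difference of 0.13, and 19 of the 30 members lay above that median. The median member difference was 0.20, which is 0.07 above the median of all tested genes, and it was 0.12 above it, before rounding, when genes that passed through 1 group alone were left out of both (medians of 0.17 over 29 members and 0.04 over 8040 genes). Single differences ran from -1.19 (Psmd6) to 0.84 (Psmd7). The median standard error of a member was 0.45, larger than most of these differences.

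At an unadjusted p under 0.05, 1 member was higher and 1 lower, where 5.77% of all tested genes were higher and 2.31% lower. Groups did not overlap for 4 members: every labelled knockout library lay above both controls for Psmd7, and below both for Psma4, Psmc1 and Psmd6. Over all tested genes such a separation was seen above for 12.2% and below for 6.35%, or 8.74% and 6.94% of those not passing through 1 group alone. The members thus counted 1 of 30 above and 3 of 30 below. Above, the counts were 3 to 4 when a labelled knockout library was left out, 5 without control replicate 1 and 10 without control replicate 2. Below, they stayed at 3 when a labelled knockout library was left out and were 6 without either control replicate. With fewer libraries, groups separate more easily by construction, so these counts could only stay or rise.

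**Figure D2:**
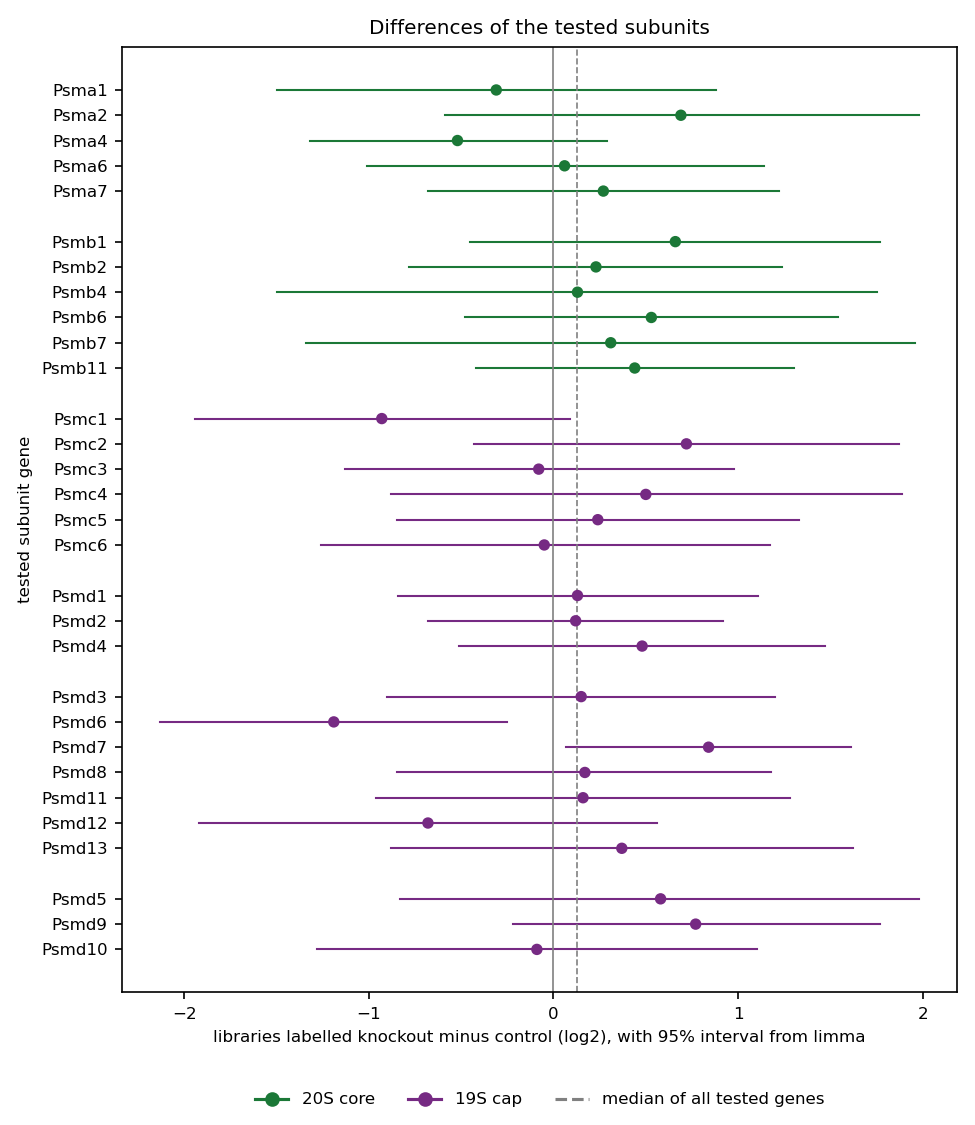
Log2 difference, libraries labelled knockout (n = 3) minus control (n = 2), of the 30 tested members with 95% intervals from limma, grouped by place in the particle. The intervals of Psmd6 and Psmd7 leave out 0, and the dashed line marks the median of all tested genes at 0.13.

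The lid held the largest member difference in each direction. Psmd6, a structural subunit of the lid (chr14:14112174-14120984, minus strand, GRCm38), stood at 0.01, 0.00 and 0.32 with the knockout label, whereas the controls were at 1.77 and 0.83. Both controls were above every labelled knockout library, and control replicate 1 stood furthest away. Group means were 0.11 ± 0.18 (SD, n = 3) against 1.30 ± 0.67 (SD, n = 2), giving a difference of -1.19 with SE 0.40 and a limma interval from -2.13 to -0.25. Its limma adjusted p was 0.599 (unadjusted 0.0202), so it did not pass. Without control replicate 1 the difference was -0.72.

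Psmd7, the partner with which the deubiquitinase Psmd14 forms a pair in the lid (chr8:107580381-107588464, minus strand), stood at 0.32, -0.07 and 0.09 against -0.76 and -0.70. The controls lay close together and below all labelled knockout libraries. Group means were 0.12 ± 0.20 (SD, n = 3) against -0.73 ± 0.04 (SD, n = 2), giving a difference of 0.84 with SE 0.32 and a limma adjusted p of 0.601. With 1 library left out the difference was between 0.74 and 0.93, where groups that do not overlap keep their sign by construction. It also kept its direction under the settings that left out no library. Neither Psmd6 nor Psmd7 shares a 40-base window with another gene. Psmd7 and Psmd14 could not be compared, since Psmd14 was above the 0-read value in 1 library.

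Of the 7 tested lid genes, 5 had a difference above 0 and 2 below, with a median of 0.16. Psmd3, which lay nearest the median of all genes, stood at 0.02, 0.37 and -0.37 against -0.67 and 0.38. Its groups overlapped fully, and the difference of 0.15 turned to -0.38 without control replicate 1. Psmd12 was the other lid gene below 0, at -0.68 with SE 0.52. It stood at 1.27 in control replicate 1 and at -0.16 in control replicate 2, and the labelled knockout libraries at 0.31, -0.07 and -0.61 lay on both sides of the latter. Psmd11 was at the 0-read value in labelled knockout replicate 3 and control replicate 1, and Psmd13 in labelled knockout replicate 1 and control replicate 1. Their differences were 0.16 and 0.37, and that of Psmd8 was 0.17.

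The ATPases, which thread substrates into the core, were split, with 3 of 6 above 0, 3 below and a median of 0.10. Psmc1 (chr12:100110154-100123405, plus strand) stood at -0.75, 0.06 and 0.39 against 0.96 and 0.69. Both controls lay above all labelled knockout libraries, but the latter spread over more than the gap between the groups. The difference was -0.93 with SE 0.43, the limma adjusted p was 0.662, and without labelled knockout replicate 1 the difference was -0.60. In Psmc1, 27.9% of windows occur in another gene, all of them pseudogenes.

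Psmc2 pointed the other way, at 0.14, 0.86 and 0.73 against -0.79 and 0.52. Control replicate 1 was low, whereas control replicate 2 lay inside the range of the libraries labelled knockout. The difference was 0.72 with SE 0.48 (limma adjusted p 0.751), and 0.06 without control replicate 1. Psmc5 stood at -0.14, 0.43 and 0.76 against -0.41 and 0.63, a difference of 0.24 with overlapping groups. Psmc4 had the widest gap between controls among the ATPases, at -1.01 and 0.96, with the labelled knockout libraries at 0.59, 0.58 and 0.26 between them. Psmc3 and Psmc6 differed by -0.08 and -0.05.

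The large scaffold subunits of the base, Psmd1 and Psmd2, and the ubiquitin receptor Psmd4 gave 3 small differences above 0. Psmd4 stood at 0.55, 0.41 and 0.50 against -0.56 and 0.57. The labelled knockout libraries agreed to within 0.07 (SD, n = 3), the controls did not, and the difference of 0.48 turned to -0.09 without control replicate 1. Psmd2 varied least of all tested members, with a range of 0.46 over the 5 libraries. It stood at 0.43, 0.36 and 0.08 against -0.03 and 0.37, and 34.1% of its windows occur in another gene. Psmd1 stood at -0.01, -0.01 and 0.80 against 0.41 and -0.16, a difference of 0.13. For Psmd1 and Psmd2 the sign changed when libraries were centred on their medians, to -0.10 and -0.12.

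The cap chaperones Psmd5, Psmd9 and Psmd10 bind the ATPases during assembly and leave the finished particle. Psmd9 stood at 0.98, 0.43 and -0.06 against -0.57 and -0.07. The groups touched, since labelled knockout replicate 3 and control replicate 2 were almost equal. The difference was 0.77 with SE 0.42 and a limma adjusted p of 0.734. With 1 library left out it was 0.51 to 1.03. Its sign could not turn there, since labelled knockout replicate 3 lay just above control replicate 2. It also kept its direction under the settings that left out no library. Of the exonic bases of Psmd9, 25.5% overlap another gene, and the library kit did not keep the strand. Of the 40-base windows of its protein-coding transcripts, 1.25% occur in another gene. Psmd5 stood at -0.41, 0.25 and 1.52 against -0.41 and 0.16, with labelled knockout replicate 1 and control replicate 1 at the 0-read value. Its difference of 0.58 was 0.04 without labelled knockout replicate 3. Psmd10 was at the 0-read value in the same pair of libraries and at 0.42, 0.75 and 1.03 in the others, of which the highest is control replicate 2.

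In the 20S core, the 5 tested α ring genes had a median difference of 0.06, with 3 above 0 and 2 below. Psma4 (chr9:54950790-54958030, plus strand) was the core gene whose groups did not overlap. It stood at 0.58, 0.07 and 0.12 with the knockout label, and the controls were at 0.82 and 0.73. The gap between labelled knockout replicate 1 and control replicate 2 was narrow, and the difference was -0.52 with SE 0.34 (limma adjusted p 0.751). Of its windows, 29.2% occur in another gene. Psma2 stood at 0.82, 1.05 and -0.55 against -0.51 and 0.00, where labelled knockout replicate 3 and control replicate 1 are 0-read values. Its difference was 0.69 with SE 0.54, and it ran from 0.39 without labelled knockout replicate 2 to 1.19 without replicate 3. Psma6 was at the 0-read value in labelled knockout replicate 1 and control replicate 1 and at 0.52, 0.04 and 0.41 in the others, so that its groups coincided, with a difference of 0.06. Psma1 and Psma7 differed by -0.31 and 0.27, with overlapping groups.

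The 6 tested β ring genes had differences from 0.13 to 0.66, and none of them separated the groups. Their common direction was partly set by the filter: Psmb11 passed it only through libraries labelled knockout, and Psmb5, above the 0-read value only in a control, was left out. The other 5 had a median of 0.31. Psmb1, a β subunit without an active site, stood at 0.30, 0.29 and 1.06 against -0.67 and 0.46. Control replicate 1 was the lowest, and control replicate 2 exceeded 2 of the libraries labelled knockout. The difference was 0.66 with SE 0.47 (limma adjusted p 0.751), and 0.09 without control replicate 1. Psmb4, another β subunit without an active site, stood at 0.70, -1.05 and 0.93 against -0.54 and 0.66. Its spread within the labelled knockout group, 1.08 (SD, n = 3), exceeded the difference of 0.13, and the latter was -0.11 with libraries centred on their medians. Psmb2 stood at 0.63, 0.16 and 0.23 in labelled knockout replicates 2 and 3 and control replicate 1, and at the 0-read value elsewhere. Psmb11, the β subunit of the thymus, was above the 0-read value in labelled knockout replicates 1 and 3 only, at 0.54 and 0.48.

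Of the catalytic subunits, Psmb6 stood at 0.24, 0.23 and 0.64 against -0.71 and 0.39, a difference of 0.53 with SE 0.43, and of -0.02 without control replicate 1. Psmb7 had the widest range of all tested members, 2.19, and both ends were controls, at 1.32 and -0.87. The libraries labelled knockout at 0.25, 1.26 and 0.09 lay between them. The difference of Psmb7 was 0.31 with SE 0.69, and -0.79 without control replicate 2. The exons of Psmb7 overlap those of Nek6, which accounts for most of the 30.0% of windows shared. Psmb5 was not tested, as given above.

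**Figure D3:**
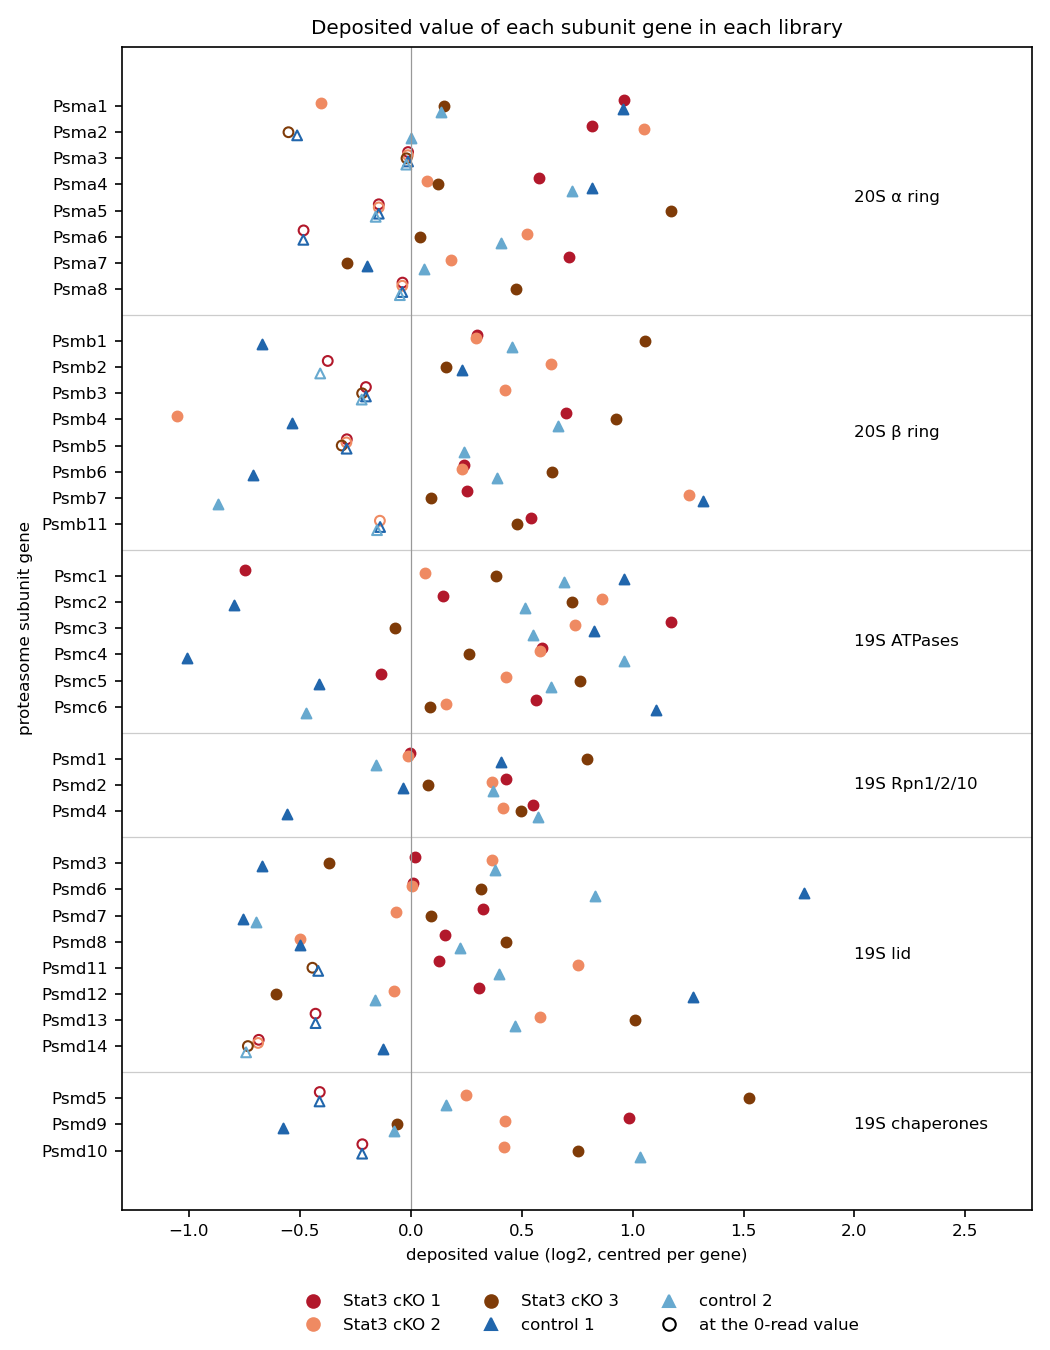
Deposited value (log2, centred per gene, x axis) of each of the 36 members in each library, grouped by place in the particle, with circles for libraries labelled knockout, triangles for controls and open symbols at the 0-read value. The centre is a reference value that is not given, so 0 is not a gene's mean over these libraries. Control replicate 1 is often the lowest or the highest point in a row, as in Psmc4, Psmd4 and Psmd6, and open symbols crowd the rows of Psma3, Psma5, Psma8, Psmb3, Psmb5 and Psmd14.

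Core and cap did not differ in a way that was shared by the libraries of a group. The median difference was 0.27 for the 11 tested core genes and 0.16 for the 19 cap genes, 0.12 apart before rounding. Within single libraries, the core median less the cap median was 0.40, -0.14 and -0.17 in the libraries labelled knockout and 0.21 and -0.26 in the controls. Each group thus held values on both sides of 0. The contrast was -0.13 without control replicate 2.

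Across libraries, the tested members stood furthest from all tested genes in the controls, low in control replicate 1 and high in control replicate 2. Of the 30 tested members, 14 (46.7%) were lowest in control replicate 1, against 23.6% of all tested genes, and 1 (3.33%) was lowest in labelled knockout replicate 1. The 14 span the particle: Psma6, Psmb1, Psmb6, Psmc2, Psmc4, Psmc5, Psmd2, Psmd3, Psmd4, Psmd5, Psmd7, Psmd9, Psmd10 and Psmd13. For Psma6, Psmd5, Psmd10 and Psmd13, labelled knockout replicate 1 was at the 0-read value too, so the pattern set which library was lowest. The 0-read pattern itself is lowest in control replicate 2, which was lowest for 35.7% of all tested genes and 16.7% of members. How much the pattern adds to these shares was not tested. The member median in control replicate 1 was -0.41, which is 0.26 below that of all tested genes, whereas control replicate 2 was at 0.39, or 0.31 above. The libraries labelled knockout were at 0.28, 0.33 and 0.21, within 0.12 of the median of all tested genes. Control replicate 1 was highest for 6 members (20.0%), close to the 20.6% of all tested genes: Psma4, Psmb7, Psmc1, Psmc6, Psmd6 and Psmd12. Its interquartile range over members was 1.26, against 0.55 to 0.65 in the other libraries. Over all tested genes that range was 1.00 to 1.22 in every library. Control replicate 1 also had the most tested genes at the 0-read value, 29.2%, against 14.8% to 20.6% in the others, and 7 of the 30 tested members were at it there. The part of depth in this pattern was not tested.

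The spread between the controls exceeded the group difference for 21 of the 30 tested members (70.0%), near the 62.7% of all tested genes. The median absolute gap between controls was 0.86 for members and 0.57 for all tested genes. Both controls lay at the 0-read value for 1374 of all tested genes and for 1 member, Psmb11. Their gap between controls is set by the pattern and small, which lowers the 62.7% and the 0.57. Control replicate 2 was above control replicate 1 for 19 members (63.3%), against 47.7% of all tested genes. In the genes with both controls at the 0-read value, the pattern puts control replicate 2 below control replicate 1, which lowers the 47.7%. The comparisons of control gaps were not made without those genes. The median member difference relative to all genes was -0.10 when control replicate 1 was left out and 0.23 when control replicate 2 was. It was 0.16 without labelled knockout replicate 1.

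**Figure D4:**
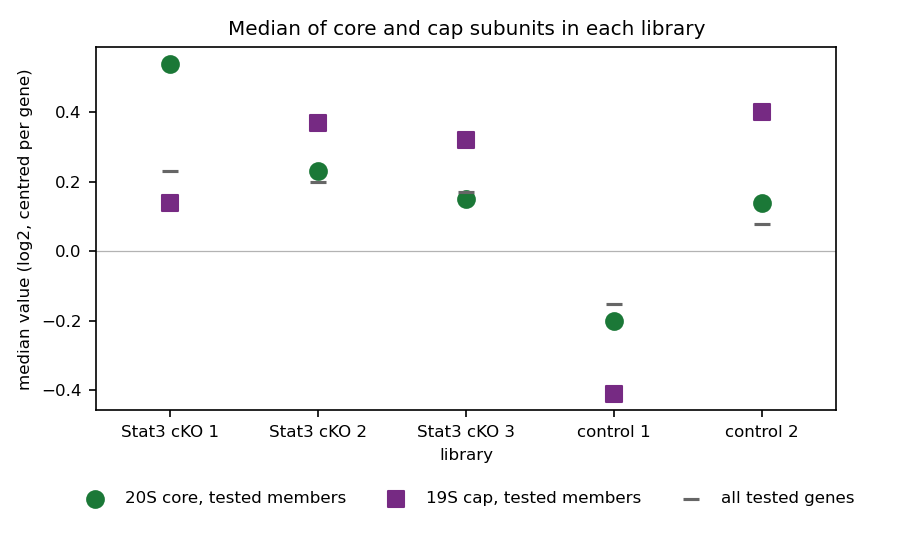
Median value (log2, centred per gene, y axis) of the tested core (circles) and cap (squares) members and of all tested genes (dashes) in each library. The centre of each gene is a reference value that is not given, not its mean over these libraries. Core and cap medians are both lowest in control replicate 1, and the order of core and cap changes from library to library within each group.

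The inducible subunits were compared with the constitutive ones they replace as a difference of log2 values within each library. Psmb8 less Psmb5 was 2.50, 0.46 and 2.24 in the libraries labelled knockout and -0.23 and 1.77 in the controls. Since Psmb5 was at the 0-read value in 4 of the libraries, this difference mostly follows Psmb8, which stood at 2.21, 0.17 and 1.93 against -0.52 and 2.01. Psmb9 less Psmb6 was 1.23, 1.63 and 0.44 against 1.91 and 0.34. Psmb10 less Psmb7 was 0.02, -0.08 and 0.36 against -1.04 and 1.88, so that the controls again enclosed the libraries labelled knockout. The group differences were 0.96, -0.02 and -0.32, with two-sided exact permutation p of 0.5, 1.0 and 0.8, each 1.0 after Benjamini-Hochberg adjustment over the 3 pairs. With 10 arrangements of the libraries, the smallest p possible was 0.1. Leaving out 1 library changed the sign of each pair.

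Genes that work with the proteasome also gave no call in limma. The 5 tested genes of the alternative caps and their inhibitor had differences above 0 (median 0.42), as had the 3 tested chaperones of core assembly (median 0.48). Psme2, Psmf1 and Psmg4 among them passed the filter only through libraries labelled knockout and so had to differ that way. The core chaperones Psmg2, above the 0-read value in control replicate 2 alone, and Psmg3, above it in labelled knockout replicate 3 alone, were not tested. Psme1, a subunit of the interferon-inducible 11S cap, stood at 1.49, 1.24 and 1.74 against 0.61 and 1.32, a difference of 0.52 with SE 0.38 that was 0.17 when control replicate 1 was left out and 0.88 when control replicate 2 was. Its partner Psme2 was above the 0-read value only in labelled knockout replicates 1 and 2, at 0.52 and 0.51. Pomp, which matures the core, stood at 0.37, 0.66 and -0.11 against -0.60 and 0.25, and its difference of 0.48 was 0.06 at the lowest with 1 library left out. Psmg4, another core chaperone, was above the 0-read value in labelled knockout replicates 1 and 2 only, at 0.94 and 0.50.

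Of 14 cap-associated genes, 7 differed above and 7 below 0. Zfand2a, a stress-induced zinc finger protein that binds the cap, stood at -0.54, 0.03 and -0.04 against 0.97 and 0.82. The controls lay above all libraries labelled knockout, with a difference of -1.08, SE 0.35 and a limma adjusted p of 0.599. Txnl1, a thioredoxin bound to the cap, stood at 0.53, 0.12 and 0.42 while both controls were at the 0-read value, so that it passed the filter through 1 group alone. Among 14 tested genes of transcriptional control and of the p97 segregase that feeds the proteasome, 9 differed above and 5 below 0. Of these 14, 5 passed the filter only through libraries labelled knockout, and the other 9 had 4 above and 5 below. Nploc4, a p97 cofactor, is one of the 5, at 0.51, 0.50 and 0.69 with both controls at the 0-read value. Mafg, a small Maf partner of Nfe2l1 and Nfe2l2, stood at 0.88, 0.33 and 0.31 against 1.74 and 1.40, a difference of -1.07. Nfe2l1 itself, picked after its values were seen, differed by 0.02, and the libraries labelled knockout all lay between the controls at -0.46 and -1.18.

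Nfe2l1 and Nfe2l2 act through the antioxidant response element, whose core is TGACNNNGC. The promoters of 29 members (31 in all, from 250 bases before to 50 after the start, RefSeq, GRCm38.p6) were searched for it on both strands. It occurred in 5 of 31 (16.1%), against 12.4% of all 32851 promoters. CCAAT, the element of the Nfy factors and searched after the values were seen, occurred in 12 (38.7%), against 37.4%. The 5 genes with the core were Psmb5, Psmb6, Psmc6, Psmd9 and Psmd12. Their windows are written 5′ to 3′ on the gene's strand with the core in capitals. In Psmc6 and Psmd12 it is on the opposite strand, and the Psmd12 window ends at the edge of the promoter. Relative to the start site, the cores begin at -47, -9, -227, -31 and -247 in that order of genes.
Psmb5 (chr14:54618024-54618052, minus strand): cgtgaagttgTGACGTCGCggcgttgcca
Psmb6 (chr11:70525338-70525366, plus strand): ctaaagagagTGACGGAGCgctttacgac
Psmc6 (chr14:45329587-45329615, plus strand): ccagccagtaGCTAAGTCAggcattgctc
Psmd9 (chr5:123228149-123228177, plus strand): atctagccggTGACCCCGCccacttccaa
Psmd12 (chr11:107479278-107479299, plus strand): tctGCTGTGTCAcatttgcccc
The 4 tested genes with the core, as shown above, did not move in 1 direction: differences were 0.77 for Psmd9, 0.53 for Psmb6, -0.05 for Psmc6 and -0.68 for Psmd12. Their median was 0.24, against 0.16 for the 20 tested members with a promoter that lacked it. A match of letters is not a site.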

How the data were processed

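PolyA RNA was sequenced in 5 libraries, 3 labelled Stat3 knockout and 2 control, each a pool of pups. The sample titles gave each library's group and replicate. Per the labels, reads were 40 bases long and were mapped to GRCm38 with TopHat 2.0.13. DESeq2 is listed in the submitters' processing notes, with neither its role nor its version. Neither the read counter nor its annotation is given in the sources used here, and the labels name no batch. Per gene and library, the authors deposited 1 log2 value, from -4.12 to 7.69. The log2 scale and its resemblance to a regularized log were inferred from the values. Such a transform shrinks differences of genes with few reads. Depth per library is unknown.

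Of 23420 rows, 6974 at 0 throughout and 27 with names turned into numbers were left out. The 0-read pattern was learned from 4715 genes with a tolerance of 25% (below -1, gaps down to 30% of the pattern's were accepted), and refined after the values had been seen. Genes at it in at most 3 libraries were kept, 9456 in all. A gene that passed only through the group where it was high had to differ. The test was limma 3.58.1 (R 4.3.3) on the values as deposited, ~ group, with eBayes, Benjamini-Hochberg adjustment over all tested genes and a threshold of 0.05. Groups counted as not overlapping when more than 0.02 apart. Pairs of catalytic subunits were compared by an exact permutation test. The limma script was tested on simulated data. Tables were handled in Python 3.11.15 (numpy 2.4.6, pandas 2.3.3) and figures drawn with matplotlib 3.10.9.

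Members and gene lists were chosen with earlier results of these data known. The genes named are Stat3, Cx3cr1, the catalytic subunits, and in each structural list the 2 members with the smallest p and the one nearest the median of all genes. Every member whose groups do not overlap or that the filter left out is named, and the 2 genes with the smallest p in each partner list. Other members are named with their values to account for all of them. Alternatives were a replicate block, median centring, quantile normalization, no filter, a stricter filter, robust eBayes, array weights and each library left out.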

Additional observations from a re-analysis of the deposited data

How the results depend on the processing

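No member passed limma under any of the 12 other settings. Without the filter on low values, 1 gene of the whole table, Sord, was lower (limma adjusted p 0.00853), where the main filter gave 0, with 218 lower at an unadjusted p under 0.05. Over the 32 named genes that were tested, 19 kept their direction under every setting. Part of this was built in by the choice of genes. Some were named for a small p or for groups that do not overlap. Nploc4, Txnl1, Psme2 and Psmg4 passed the filter through 1 group alone. The smallest limma adjusted p was 0.0748, for Nploc4 without the filter. Nploc4 is not a member, and both controls lay at the 0-read value for it. Of 216 values under settings that left out no library, 200 kept their direction and 16 did not. The replicate block is among these settings, although its differences equal those without labelled knockout replicate 3. With 1 library left out, 137 of 160 did and 23 did not.

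With libraries centred on their medians and with quantile normalization, in that order, the difference was -0.18 and -0.09 for Psma6, -0.11 and -0.02 for Psmb4, -0.10 and -0.01 for Psmd1, -0.12 and -0.11 for Psmd2, -0.09 and -0.02 for Psmd3, and -0.07 and -0.02 for Stat3. Centring moved differences by a median of -0.24, the gap between the library medians of the groups, and took the median of all tested genes from 0.13 to -0.11. Array weights gave 0.02 for Psmb10. Quantile normalization gave 0.19 for Psmb9 less Psmb6. The median member difference relative to all genes was 0.16 without the filter and 0.12, in an alternative added after seeing the data, over genes above the 0-read value in both groups.

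Replicates 1 and 2 occur in both groups but were not shown to pair the libraries: deviations from the group means correlated at 0.00 for replicate 1 and -0.07 for replicate 2. With the replicate block, no member passed, and the difference was -0.24 for Psmb4, -0.13 for Psmd1, 0.08 for Psmb10 and 0.31 for Psmb9 less Psmb6. Replicate 3 occurs only with the knockout label, so it adds nothing to the difference in that fit. The block therefore gives the same differences as leaving out labelled knockout replicate 3.

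Leaving out 1 library gave a range of -0.10 to 0.23 for the median member difference relative to all genes, -0.13 to 0.29 for the median of core less cap, 3 to 10 for members with every labelled knockout library above both controls and 3 to 6 for members below. The ranges were -0.04 to 1.96 for Psmb8 less Psmb5, -0.81 to 0.76 for Psmb9 less Psmb6 and -1.78 to 1.14 for Psmb10 less Psmb7. Single genes that changed sign ranged from -0.38 to 0.51 (Psma6), -0.47 to 0.75 (Psmb4), -0.02 to 1.08 (Psmb6), -0.79 to 1.40 (Psmb7), -0.58 to 1.96 (Psmb8), -0.38 to 0.36 (Psmb10), -0.28 to 0.76 (Psmc5), -0.15 to 0.42 (Psmd1), -0.08 to 0.32 (Psmd2), -0.38 to 0.68 (Psmd3), -0.09 to 1.04 (Psmd4), -0.71 to 0.54 (Psmd10) and -0.10 to 0.35 (Stat3). Where 1 control was left, its spread was taken to equal that of the other group. The cause of these changes of sign was not tested. The alternative for counts or linear values was not run, since the values are log2.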
